A study of Mus musculus with 9 samples.

Results

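The clustered protocadherins are cell surface proteins of the cadherin family whose genes lie in 3 neighbouring clusters, alpha, beta and gamma, on mouse chromosome 18. Members were chosen by symbol (Pcdha, Pcdhb followed by a number, Pcdhga, Pcdhgb and Pcdhgc), which gave 58 of the 45777 genes in the count table: 14 alpha, 22 beta and 22 gamma genes. The family was proposed because 1 member, Pcdhga3, was known to differ between groups of these libraries, so values for immobilized against control mice are given below as a description. Bulk RNA from colon tissue of wild-type mice was sequenced in 9 libraries, 3 per group. CT mice ate a normal diet as controls. IM mice ate the same diet and wore a hindlimb cast for 10 days. IM-HYA mice wore the cast and ate a diet containing HYA, an abbreviation the labels do not spell out. All 3 groups were wild type, no group received HYA without the cast, and the age and sex of the mice are not stated in the labels. The labels number the replicates without saying that each was a separate animal, so p-values describe only how far these libraries differ, and that spread may be technical.

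Clustered protocadherins bind their own kind across cell contacts. In mouse neurons each cell uses a few variable genes of the clusters, chosen largely at random through promoters that CTCF and cohesin bring to distant enhancers, and the resulting combination lets a neuron tell its own branches from those of its neighbours. The C type genes at the end of the alpha and gamma clusters are instead used more uniformly. In the colon the family is known mainly from human colorectal tumours, where DNA methylation silences the C type gene PCDHGC3.

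The structure of the locus decides how its genes can be counted. On GRCm38 the alpha genes spanned chromosome 18 from 36930285 to 37188897, the beta genes 37264998 to 37521419 and the gamma genes 37661775 to 37841873, all on the plus strand. All 22 beta genes had a single exon of their own. Of the alpha and gamma genes, 13 of 14 and 21 of 22 could be matched to a transcript model of the same build, and each had 4 exons: a variable first exon with its own promoter and 3 constant exons shared by the whole cluster. Shared exons made up a median of 53.5% of the bases of an alpha transcript and 44.8% of a gamma transcript. A read in a shared exon does not say which gene it came from, so counts of single alpha and gamma genes depend on how the counting divided such reads. The sum over a cluster does not depend on that division if each such read was counted once, which the labels do not state. Beta genes share no exon.

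The libraries held 19638401 to 42917198 counts, and no 2 replicates matched within sampling noise (the smallest chi-square per gene was 39.8). Epithelial markers of the labelled tissue had reads in every library for 10 of 10 genes. Enteric neuron markers had reads in every library for 18 of 19 genes, with Chat at 0 in some, and enteric glia markers for 9 of 10, with Fabp7 at 0 in some. CT 2 and IM 3 stood apart from the rest. A list of 10 pancreatic acinar genes made up 25.5% of CT 2, 0.435% of IM 3 and at most 0.0685% of any other library, and IM 3 was highest in adipocyte, T cell and B cell markers. Levels below are CPM (read counts relative to the library total, scaled by the TMM method) or, where stated, the deposited TPM. TPM also take transcript length into account and serve to compare genes with each other. They are scaled to a common sum per library, which in CT 2 includes the pancreatic transcripts.

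The family was expressed at a low level and almost wholly from the gamma cluster. Over all libraries, gamma genes took 34192 of the 37478 counts on the family, beta genes 2581 and alpha genes 705. Reads were found for 52 of 58 members and in all 9 libraries for 24. The 6 members without any read were Pcdha4, Pcdha7, Pcdha8, Pcdha11, Pcdhac1 and Pcdhb1, and 3 counts over all libraries would allow each of them up to 0.00955 CPM. In single libraries a count of 0 allows up to 0.0598 to 0.205 CPM, and these limits cover counting error only. At the level of genes, 10 of 22 gamma genes had a mean of at least 1 TPM, against 0 of 22 beta and 0 of 14 alpha genes, while the median over all 18414 genes tested was 5.78 TPM. Pcdhgc3 came first, followed by Pcdhga9 (3.57 TPM), Pcdhga10 (3.55), Pcdhga6 (3.06), Pcdhgc4 (2.34), Pcdhgb6 (1.35), Pcdhga4 (1.23), Pcdhgb7 (1.06), Pcdhga2 (1.05) and Pcdhga7 (1.0). The filter on low counts left 2 alpha, 16 beta and 21 gamma genes for testing, and the 1 gamma gene left out was Pcdhgb8, annotated as a transcribed pseudogene, with 28 counts in all. Bulk tissue cannot tell apart fewer expressing cells from less RNA per cell.

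**Figure D1:**
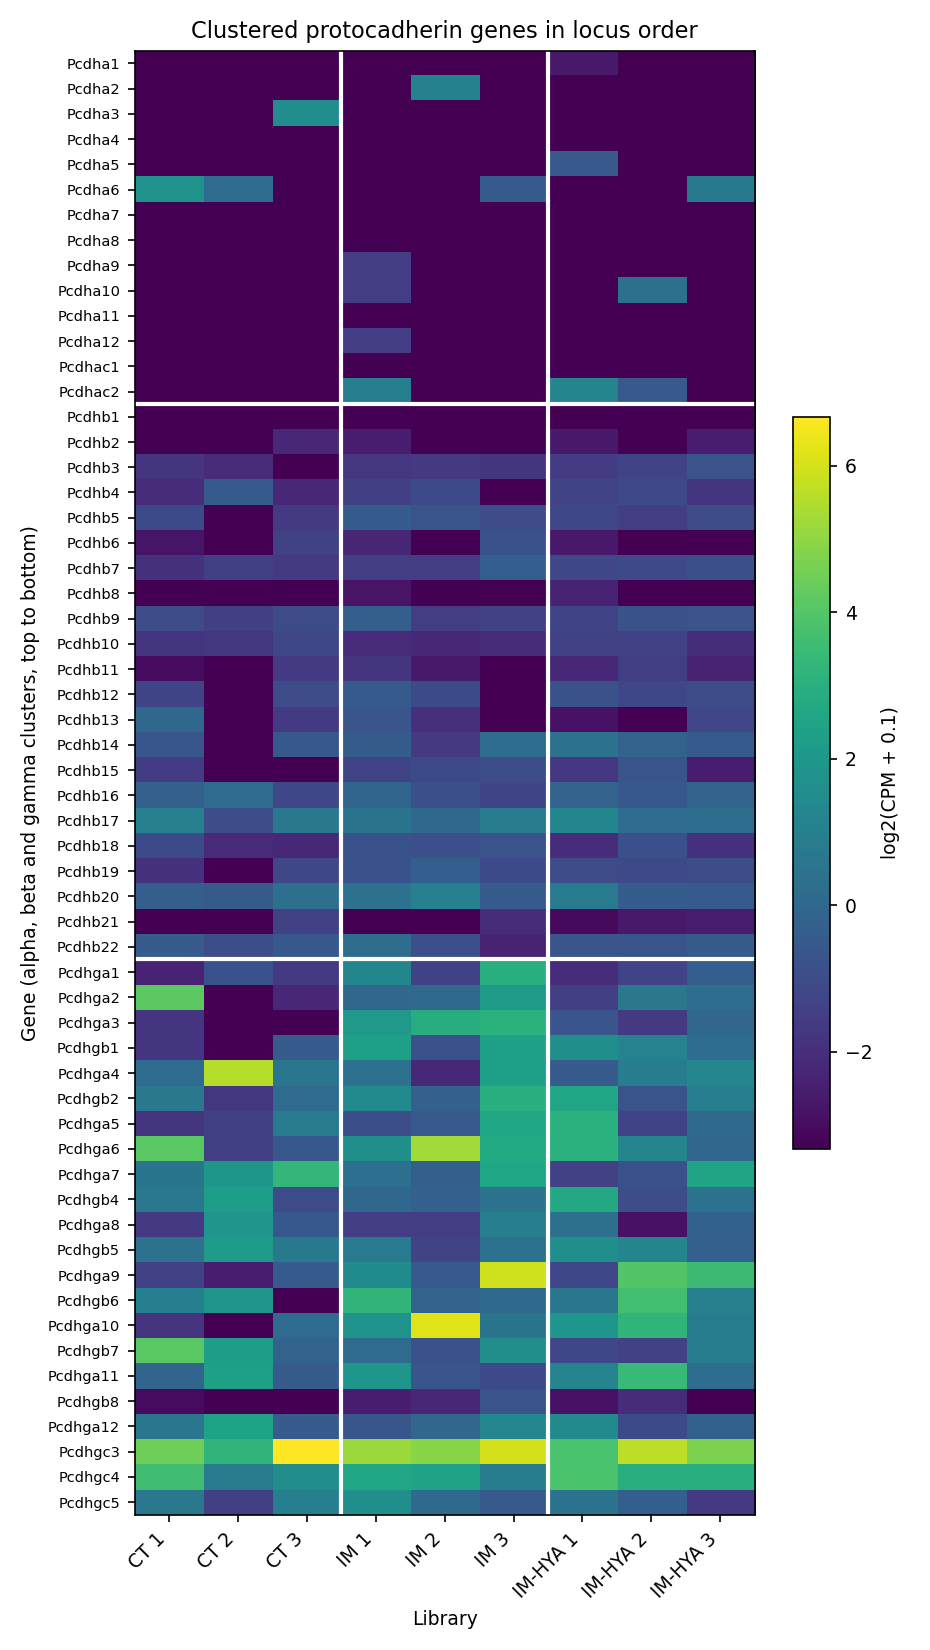
Level of each of the 58 clustered protocadherin genes (rows, in locus order) in each of the 9 libraries (columns), as log2(CPM + 0.1), with white lines between clusters and groups. Pcdhgc3 is bright in every library, beta genes are low and even, alpha reads sit on 1 to 4 genes per library, and the brightest gamma A or B gene changes from library to library.

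Pcdhgc3, a C type gamma gene that in the mouse cortex promotes dendrite branching, was the most abundant member, at a mean of 13.7 TPM and rank 6006 of the 45777 genes. It lies at chromosome 18, 37806410 to 37841873, its last 3 exons being those of the whole gamma cluster. Its level was 21.7, 9.22 and 101.8 CPM for CT, 36.3, 29.6 and 65.2 for IM and 13.9, 51.5 and 25.85 for IM-HYA. CT 3 was highest and CT 2 lowest, so the control group spanned both other groups. Its log2 fold change was −0.02 (SE 0.76) in IM against CT, −0.52 (SE 0.77) in IM-HYA against IM and −0.54 (SE 0.77) in IM-HYA against CT. Without CT 3 the values against CT turned to 1.49 for IM and 0.98 for IM-HYA. Pcdhgc4, the gamma gene that mouse neurons need for survival, measured 12.0, 1.71 and 2.97 CPM for CT, 5.79, 5.38 and 1.72 for IM and 14.2, 7.88 and 7.64 for IM-HYA. All 3 IM-HYA libraries lay above all 3 IM libraries in Pcdhgc4, and the control group overlapped both. Pcdhgc5, the third C type gamma gene, measured 1.44, 0.273 and 1.88 CPM for CT, 3.06, 0.964 and 0.605 for IM and 1.32, 0.698 and 0.218 for IM-HYA, with all groups overlapping.

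The gamma A and B genes carried many reads, but on different genes in different libraries. The leading A or B gene was Pcdhga2 in CT 1 (746 counts), Pcdhga4 in CT 2 (689) and Pcdhga7 in CT 3 (169). Among the IM libraries it was Pcdhgb6 in IM 1 (411), Pcdhga10 in IM 2 (2308) and Pcdhga9 in IM 3 (1320). IM-HYA 1 was led by Pcdhga5 (411), and IM-HYA 2 and IM-HYA 3 by Pcdhga9 (798 and 472). Thus 7 distinct genes led in the 9 libraries, and the leading gene held 16.9% to 56.9% of the A and B counts. The leading genes could have nearly equal counts: in CT 1, Pcdhga2, Pcdhgb7 and Pcdhga6 had 746, 726 and 725 counts, and in IM-HYA 1 Pcdhga5 and Pcdhga6 had 411 and 408.

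Of the gamma A and B genes, Pcdhga9 had the largest ratio of its highest to its median library, and Pcdhga10 the highest single value. Pcdhga9 measured 0.283, 0.0683 and 0.627 CPM for CT, 2.75, 0.591 and 61.4 for IM and 0.339, 15.9 and 11.4 for IM-HYA, so its highest library, IM 3, stood 97.8-fold above its median library. Pcdhga10 measured 0.189, 0 and 1.03 CPM for CT, 3.38, 71.8 and 1.35 for IM and 3.71, 9.13 and 1.67 for IM-HYA, and its highest library, IM 2, stood 43.0-fold above its median. A single library set the upper end in both genes. Pcdhga4 measured 1.04, 47.1 and 1.43 CPM for CT, 1.24, 0.124 and 5.16 for IM and 0.638, 1.75 and 2.35 for IM-HYA, so that CT 2 stood alone. Pcdhga2 measured 17.6, 0 and 0.114 CPM for CT, 0.878, 0.995 and 4.0 for IM and 0.259, 1.46 and 1.11 for IM-HYA, and here CT 1 stood alone. Over the 19 gamma A and B genes, the highest library stood a median of 12.8-fold above the median library (range 2.79 to 97.8). The same ratio had a median of 3.18 for the 3 gamma C genes and 2.08 for the 19 of 22 beta genes whose median library had a read.

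**Figure D2:**
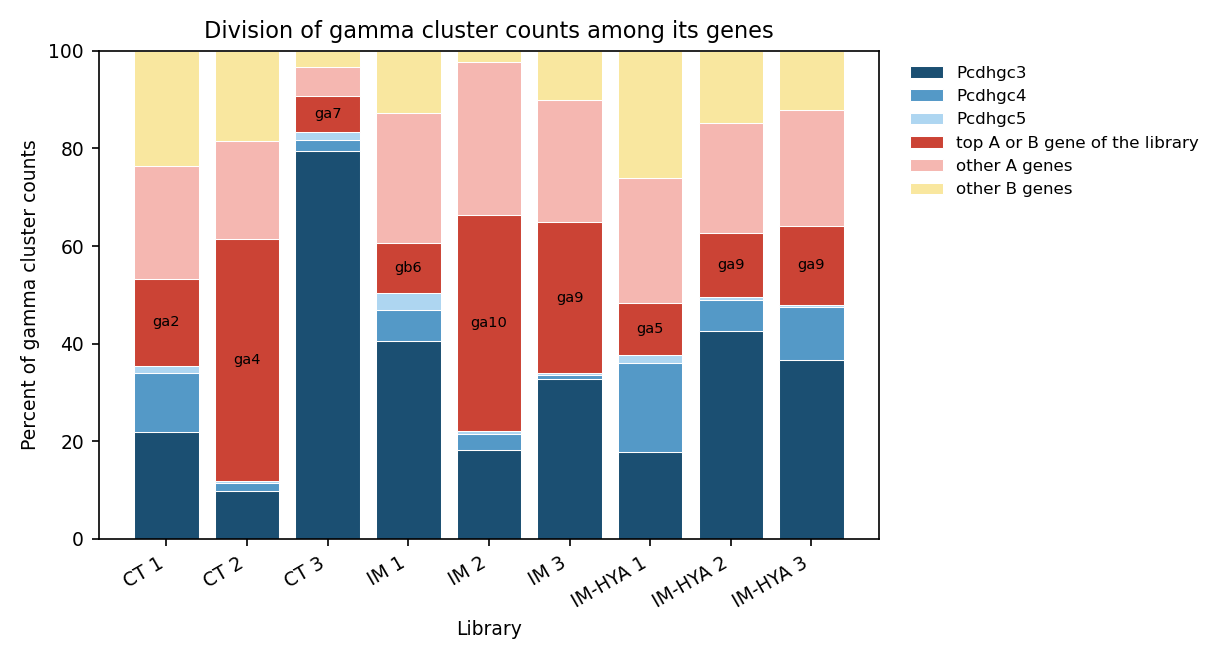
Percent of all gamma cluster counts (vertical axis) given to Pcdhgc3, Pcdhgc4, Pcdhgc5, the leading A or B gene of the library (named in its segment without the prefix Pcdh), the other A genes and the other B genes, in each of the 9 libraries (horizontal axis). The share of Pcdhgc3 runs from 9.73% in CT 2 to 79.5% in CT 3, and 7 different A or B genes lead.

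Agreement between libraries was measured as Spearman's rho of the members' levels between each of the 36 pairs of libraries, a description across genes that share libraries and, for gamma, exons. For the 22 beta genes the median rho was 0.627, and all 36 pairs lay above 0. For the 19 gamma A and B genes it was 0.189, with 26 of 36 pairs above 0. Pairs within a group had medians of 0.551 for beta and 0.279 for gamma A and B genes over 9 pairs, against 0.647 and 0.174 over the 27 pairs between groups. Within groups the median was thus lower for beta and higher for gamma A and B genes. For the latter, 8 of 9 pairs within and 18 of 27 between groups lay above 0. Without CT 2 the medians over all pairs were 0.704 and 0.204. In the fit across all genes, the biological coefficient of variation (BCV, the spread between replicates beyond counting error) exceeded the trend for genes of the same level in 18 of 18 tested gamma A and B genes and 3 of 3 gamma C genes, but in 4 of 16 tested beta genes. Median BCV was 0.941 for gamma A and B, 0.654 for gamma C and 0.519 for beta genes, and 0.364 over all genes tested, whose median log2 CPM of 3.43 was above those of the beta (−1.29), gamma A and B (1.43) and gamma C genes (2.74).

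Alpha cluster reads were few and mostly fell on 1 gene per library. In 6 of 9 libraries every alpha read was given to a single gene, which was Pcdha6 in CT 1, CT 2, IM 3 and IM-HYA 3 (146, 15, 13 and 63 counts), Pcdha3 in CT 3 (50) and Pcdha2 in IM 2 (65). In IM 1 the C type gene Pcdhac2 took 85 counts, and Pcdha9, Pcdha10 and Pcdha12 had exactly 11 each. IM-HYA 1 had 112 counts on Pcdhac2, 30 on Pcdha5 and 3 on Pcdha1, and IM-HYA 2 had 60 on Pcdha10 and 30 on Pcdhac2. Pcdhac2, which serotonergic neurons of the mouse brain need to space their axons, thus had no read in any CT library, and a fold change against that group is not given. Equal counts on several genes were also found in the gamma cluster, such as 11 on each of Pcdhgb1, Pcdhga9, Pcdhga11 and Pcdhga12 in CT 3. How the reads of shared exons were divided among genes is not stated in the labels, and its part in these patterns was not tested.

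Beta genes, each a single exon with its own cytoplasmic tail, were low and even. Pcdhb17, at chromosome 18, 37485021 to 37488290, led in 7 of 9 libraries and averaged 0.704 TPM. It measured 1.93, 0.410 and 1.48 CPM for CT, 1.35, 0.902 and 1.63 for IM and 2.27, 1.04 and 1.14 for IM-HYA, with all groups overlapping. Pcdhb20 led in IM 2 and measured 0.683, 0.615 and 1.20 CPM for CT, 1.26, 1.96 and 0.651 for IM and 1.58, 0.658 and 0.605 for IM-HYA. Its groups overlapped as well. Pcdhb14 measured 0.542, 0 and 0.571 CPM for CT, 0.675, 0.218 and 1.07 for IM and 1.24, 0.818 and 0.605 for IM-HYA, where all 3 libraries lay above the CT libraries. In CT 2, whose 60 beta counts were the fewest, Pcdhb16 led with 15. The other 18 genes with reads averaged 0.0118 TPM (Pcdhb8) to 0.295 TPM (Pcdhb22), and Pcdhb1 had none.

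Summed over each cluster, where the division of shared reads has no effect if each was counted once, the groups overlapped in CPM. The gamma sum was 99.0, 94.8 and 128 CPM for CT, 89.6, 162 and 199 for IM and 77.9, 121 and 70.4 for IM-HYA. Group means were 107 ± 18.1, 150 ± 55.6 and 89.8 ± 27.4 CPM (SD, n = 3 each), with IM 2 and IM 3 above every other library and IM 1 below every CT library. On the log2 scale, IM lay 0.42 above CT and IM-HYA lay 0.71 below IM (log2 difference −0.71), set against a pooled SD within groups of 0.44. In deposited TPM and on plain library totals the difference of IM from CT was 1.02 and 0.89, and that of IM-HYA from CT turned from −0.29 to 0.47 and 0.32. In TPM the gamma sum of IM (40.1 to 63.2) lay wholly above that of CT (12.3 to 37.8), so IM 1 was there above every CT library. The gamma sum of IM-HYA (28.2 to 47.5 TPM) overlapped both. Without CT 2 and IM 3 together, the CPM difference was 0.10 for IM from CT, −0.47 for IM-HYA from IM and −0.37 for IM-HYA from CT. Over all libraries the highest gamma sum was 2.83 times the lowest, while the ratio was 6.12 for the A and B genes alone and 9.52 for the C genes alone, so the parts varied more than their sum.

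The beta sum was 8.08, 4.10 and 7.47 CPM for CT, 10.2, 7.74 and 7.39 for IM and 9.86, 7.56 and 7.55 for IM-HYA. Its group means were 6.55 ± 2.15, 8.45 ± 1.54 and 8.32 ± 1.33 CPM, and CT 2 was the lowest library. The alpha sum was 3.44, 1.02 and 2.85 CPM for CT, 2.66, 2.02 and 0.605 for IM and 2.89, 1.80 and 1.52 for IM-HYA, with means of 2.44 ± 1.26, 1.76 ± 1.05 and 2.07 ± 0.725 CPM. In CPM both clusters overlapped between all groups. In TPM the beta sum of IM-HYA (3.9 to 5.54) lay above that of CT (0.640 to 3.81), while IM (3.01 to 6.075) overlapped both. No p is given for these sums, since they are scores over members chosen with results known.

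**Figure D3:**
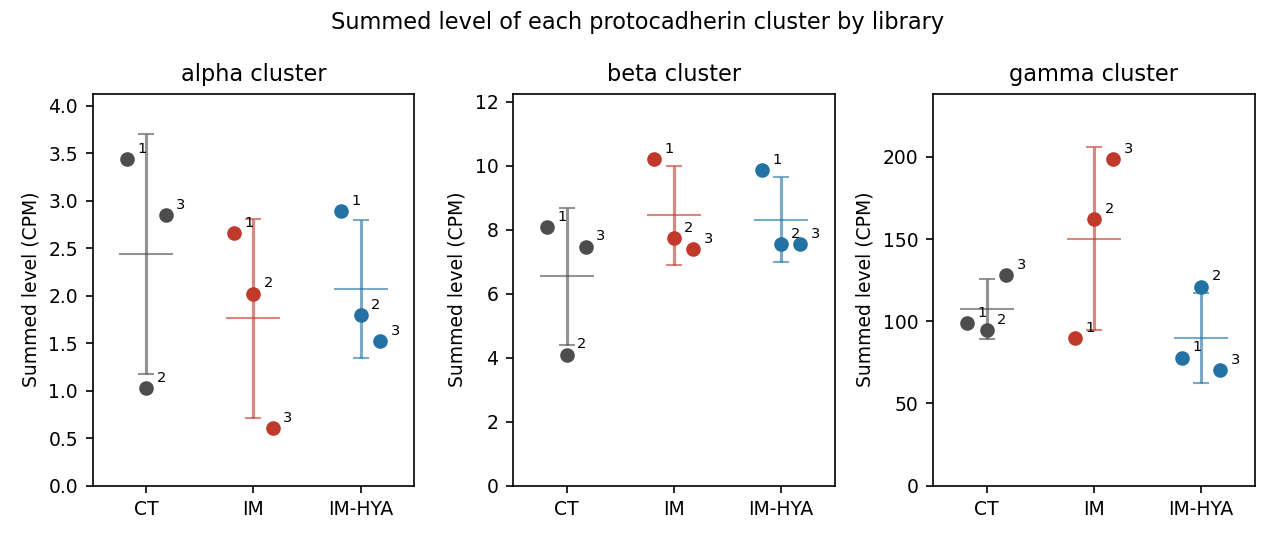
Summed level of the alpha, beta and gamma clusters in CPM (vertical axes, each starting at 0) for the 3 groups, with a numbered point per replicate, a bar at the group mean and whiskers of 1 SD (n = 3). In CPM all groups overlap in every cluster, and the gamma cluster of the IM group spans the widest range, 89.6 to 199 CPM.

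In CPM, several marker lists ran with or against the gamma level in part of the libraries, among them genes that mark position along the colon. More marker lists were set beside the cluster sums than are named here and below. Those named were picked after their values were seen. The distal colon Hox list (8 genes, of which Hoxd13, Hoxa13 and Hoxc10 were at 0 in some library) had a summed level of 164 to 625 TPM over the CT libraries, 9.96 to 635 over IM and 236 to 739 over IM-HYA. Where the sum was high, most of it was Hoxb13, such as 507 TPM in CT 1 and 603 TPM in IM-HYA 1. The genes did not all run together: Hoxa11 was highest in IM 2 (9.36 TPM) and lowest in CT 2 (0.879 TPM). As a mean log2(CPM + 1), it was lowest in IM 3 (1.15), IM 2 (1.71), IM-HYA 2 (2.17) and CT 3 (2.23), and 3.01 to 4.21 in the other 5 libraries. Those 4 libraries were the 4 highest in the gamma sum in CPM. By the same measures, the library lowest in distal Hox genes in each group was also the highest in the gamma sum and in Pcdhgc3. In deposited TPM the 4 libraries highest in the gamma sum differed in 1 place, IM 1 (40.1 TPM over the gamma genes) lying above CT 3 (37.8). The match with distal Hox genes did not hold for the controls in summed TPM. CT 2 had a lower summed distal Hox level (164 TPM) than CT 3 (223) and IM-HYA 2 (236), and the lowest gamma sum of all libraries (12.3 TPM). Against CT 3, CT 2 was lower in Hoxb13 (151 against 214 TPM), Hoxa11 and Hoxa13. It was higher in Hoxd10, Hoxd11, Hoxd12 and Hoxd13 (8.05 against 2.48 TPM for Hoxd13). The part of the pancreatic transcripts in the TPM of CT 2 was not tested. The 4 libraries lowest in distal Hox genes by mean log2(CPM + 1) were also the highest in Muc2, a gene for goblet cell mucin picked after its values were seen. Its level there was 1034 to 2919 TPM, against 145 to 283 in the rest. The proximal Hox list (7 of 7 genes with reads in every library) had a summed level of 7.26 to 28.0 TPM over CT, 27.9 to 236 over IM and 24.8 to 41.4 over IM-HYA, and IM 3 and IM 2 (236 and 99.1 TPM) were highest, while CT 3, highest of all libraries in Pcdhgc3, was at 25.9 TPM and below CT 1. The fibroblast list (10 of 10 genes with reads in every library) was lowest in the 4 libraries highest in the gamma sum, in the same order: IM 3 (mean log2(CPM + 1) of 5.53), IM 2 (5.97), CT 3 (6.12) and IM-HYA 2 (6.27), against 6.35 to 7.25 in the rest. Summed in TPM, the fibroblast list was instead lowest in CT 2 (210), the library lowest in the gamma sum in TPM, and next in IM 3 (267). The parts of colon position and of fibroblast content in the gamma differences were not tested.

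**Figure D4:**
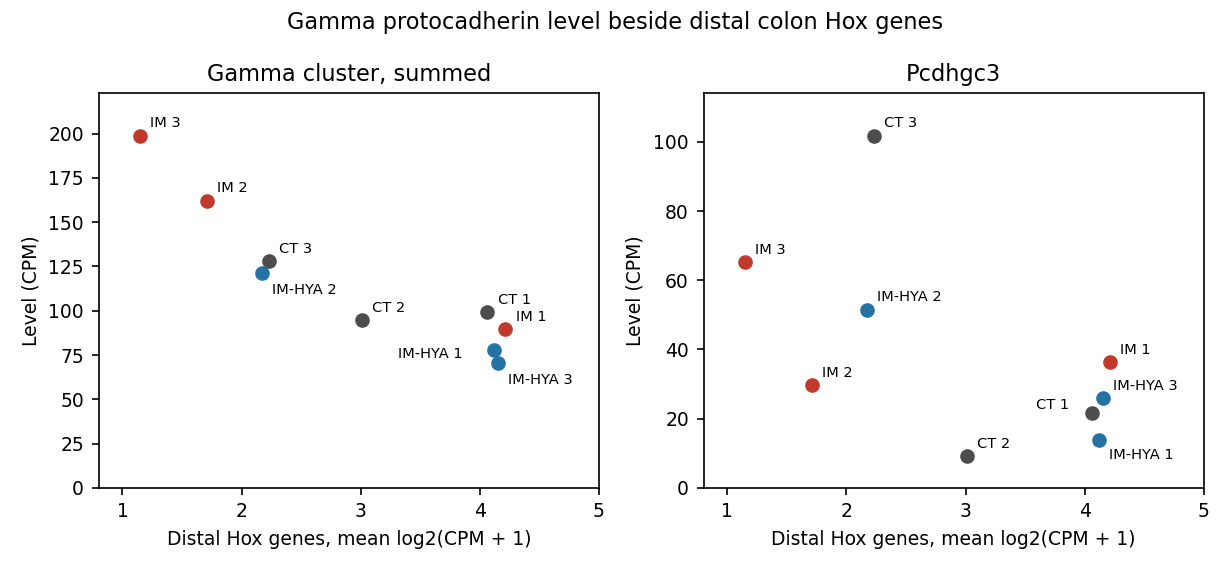
Gamma cluster sum (left) and Pcdhgc3 (right) in CPM against the level of the 8 distal Hox genes, as a mean of log2(CPM + 1), 1 point per library, coloured by group (CT grey, IM red, IM-HYA blue). The 4 libraries lowest in distal Hox genes hold the 4 highest gamma sums, 121 to 199 CPM, and include libraries of all 3 groups.

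Fibroblast and glia markers shared their 3 highest libraries with the beta sum, but below these the order differed. CT 2 ranked 9 in the beta sum and 5 in fibroblast markers, and IM 2 ranked 4 and 8. IM 3 ranked 8 in the beta sum and 4 in glia markers. The beta sum was highest in IM 1, IM-HYA 1 and CT 1, and these were also the 3 libraries highest in the 10 fibroblast markers (mean log2(CPM + 1) of 7.25, 6.73 and 7.0). Over groups the summed fibroblast markers ran from 210 to 956 TPM in CT, 267 to 1439 for IM and 627 to 938 for IM-HYA, with none at 0 in any library. The same 3 libraries were the highest in the 10 enteric glia markers (mean log2(CPM + 1) of 2.94 in IM-HYA 1, 2.92 in CT 1 and 2.73 in IM 1), whose summed level ran from 34.0 to 96.5 TPM in CT, 84.1 to 133 in IM and 103 to 123 in IM-HYA. CT 1, highest in the alpha sum, was also highest in the enteric neuron markers (303 TPM summed), whose range was 141 to 303 TPM in CT, 178 to 259 for IM and 132 to 256 for IM-HYA. The other libraries did not follow that order, IM 2 being second in the neuron markers and the fifth in the alpha sum. The part of these markers in the sums was not tested.

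Setting IM against CT addressed what the cast did under a normal diet. Of 39 members tested (2 alpha, 16 beta and 21 gamma genes), edgeR's quasi-likelihood test called 0, where 0.00543% of all 18414 genes tested were called. DESeq2 called 1, Pcdhga3, and 0.363% of the 17889 genes to which it gave an adjusted p. At an unadjusted p under 0.05, 5 members were higher and 0 lower, where 7.94% of all genes passed, 4.83% higher and 3.11% lower. The groups did not overlap for 6 members higher and 1 lower in IM, where 9.02% of all genes were so separated, 4.43% higher and 4.59% lower. Since the family was proposed from this contrast, nothing is read from these shares. Fitted values above and below 0 were balanced in the gamma cluster (10 and 11 genes, median log2 fold change −0.02) and mostly above 0 in the beta cluster (11 and 5 genes, median 0.53), with a median over all genes of 0.04.

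Pcdhga3, at chromosome 18, 37674335 to 37841873, had 8, 0 and 0 counts over the CT libraries, 185, 237 and 176 over IM and 26, 11 and 37 over IM-HYA. All IM libraries lay above all others, and its log2 fold change in IM against CT was 6.23 (SE 1.11). As a share of gamma cluster counts it held 4.65%, 4.54% and 4.12% in the IM libraries, at most 0.190% in CT and 0.181% to 1.27% in IM-HYA. Pcdhga3 was the gene noticed in these libraries, so nothing is read from how close its 3 IM shares are. Its counts also depend on how reads of the shared exons were divided. The fold rests on the 8 counts of CT 1, since without that library the control group had no read of Pcdhga3.

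Other members with the smallest p in this comparison varied more within groups. Pcdhga10 and Pcdhga9 had log2 fold changes of 5.98 (SE 1.75) and 6.02 (SE 1.93), which dropped to 2.60 without IM 2 and 2.34 without IM 3. Pcdhga1 measured 0.0943, 0.478 and 0.228 CPM for CT, 2.32, 0.280 and 7.77 for IM and 0.140, 0.319 and 0.701 for IM-HYA, a log2 fold change of 3.76 (SE 1.13) in IM against CT. Pcdhgb1 measured 0.189, 0 and 0.627 CPM for CT, 5.22, 0.466 and 5.12 for IM and 3.07, 2.07 and 1.09 for IM-HYA, a log2 fold change of 3.71 (SE 1.11). IM 2 overlapped the controls in both genes. On the lower side Pcdhga4 (−2.93, SE 1.51) rested on CT 2, the log2 fold change being 0.74 without it. Pcdhgb7 measured 17.1, 4.71 and 0.799 CPM for CT and 1.04, 0.466 and 2.98 in IM (−2.35, SE 1.09), and the log2 fold change was −0.90 without CT 1. Pcdhgb5 measured 1.23, 4.30 and 1.54 CPM for CT and 1.60, 0.311 and 1.26 in IM (−1.14, SE 0.73), beside 3.05, 2.21 and 0.726 for IM-HYA, so the groups overlapped in both of these genes.

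Of the beta genes, 4 were separated upward in IM, all at low levels and none called. Pcdhb15 measured 0.236, 0 and 0 CPM for CT and 0.315, 0.373 and 0.418 in IM, a log2 fold change of 1.81 (SE 1.18). Pcdhb19 measured 0.165, 0 and 0.342 CPM for CT and 0.473, 0.684 and 0.372 in IM (1.55, SE 0.87). Pcdhb5 and Pcdhb18 had log2 fold changes of 1.24 (SE 0.84) and 1.06 (SE 0.73). Pcdhb10 was separated downward, at −0.85 (SE 0.71). CT 2 had no read of Pcdhb5, Pcdhb15 or Pcdhb19.

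**Figure D5:**
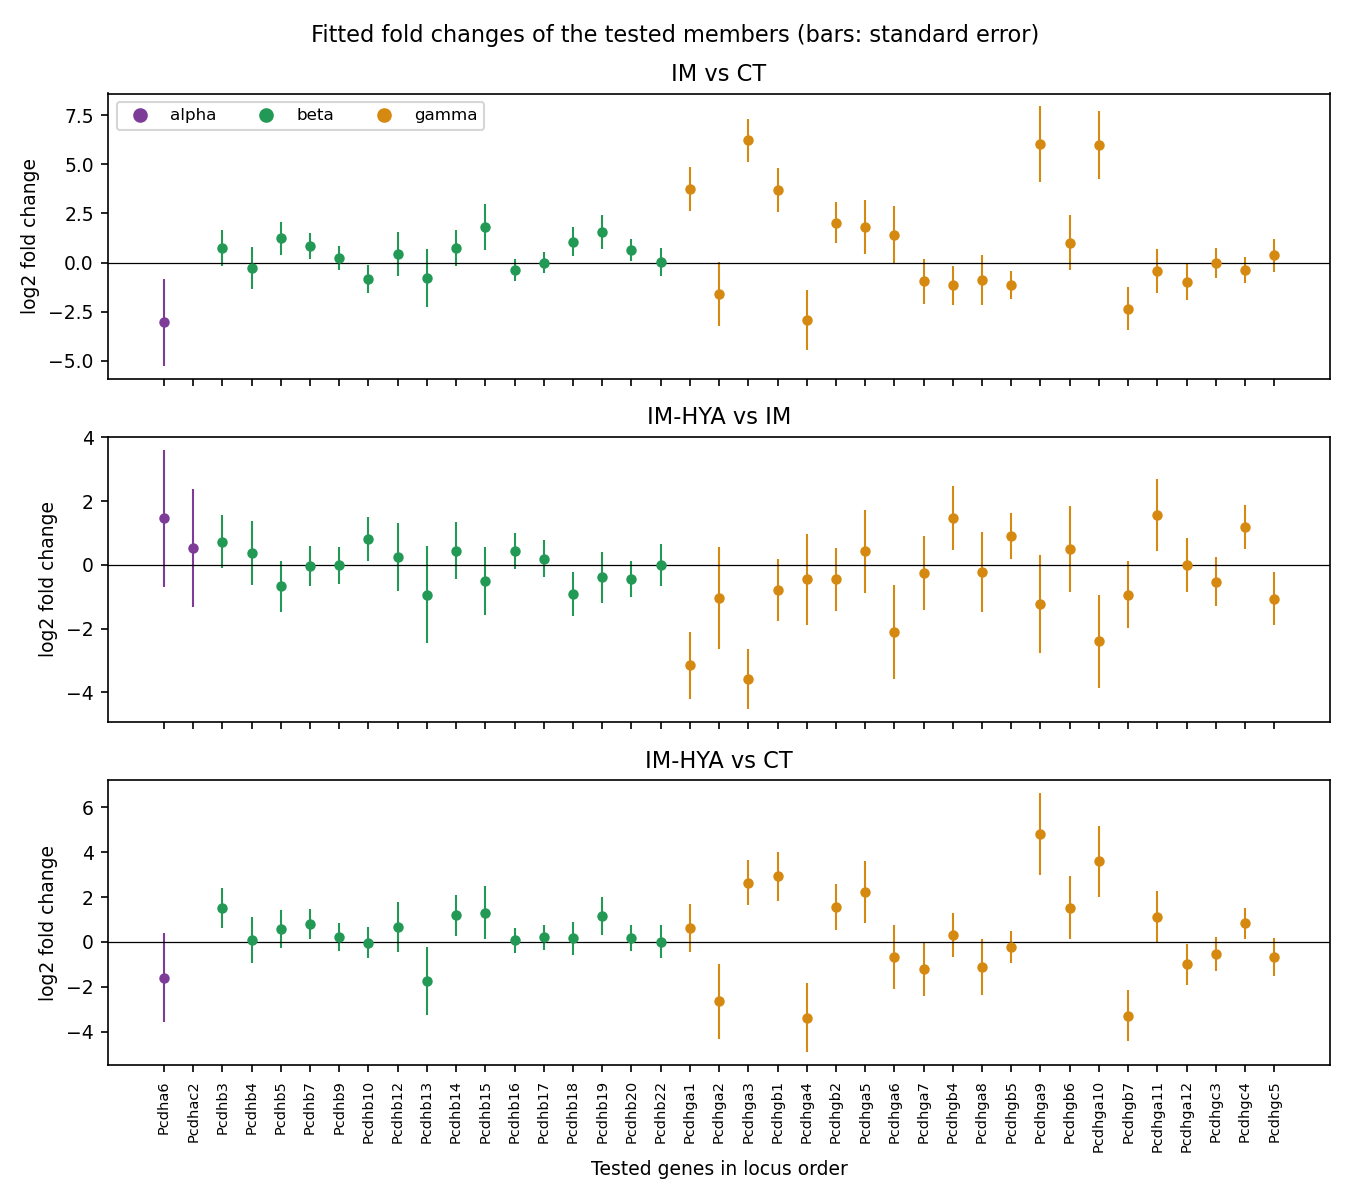
Fitted log2 fold change of each tested member (points, in locus order, coloured by cluster) with its standard error (bars) in the 3 comparisons. Beta genes stay within 2 log2 units of 0, gamma A and B genes range from −3.59 to 6.23, and Pcdhac2, with no read in CT, is drawn in the comparison of IM-HYA with IM alone.

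The comparison of IM-HYA with IM asked what the HYA diet did in mice with the cast, and shares the IM libraries with the comparison above. edgeR called 0 members and 0% of all genes. DESeq2 called 1 member, again Pcdhga3, and 0.236% of the 18246 genes to which it gave an adjusted p. At an unadjusted p under 0.05, 0 members were higher and 2 lower (5.13% of those tested), where 7.66% of all genes passed, 6.39% lower and 1.27% higher. The groups did not overlap for 3 members higher (7.69%, against 5.39% of all genes) and 2 lower (5.13%, against 4.3%). Over both directions 9.68% of all genes were separated. Pcdhga3, noticed in these IM libraries, is among the members counted, so nothing is read from these shares. The 2 members lower at an unadjusted p under 0.05 were Pcdhga3 with a log2 fold change of −3.59 (SE 0.94, edgeR adjusted p = 0.604) and Pcdhga1 with −3.15 (SE 1.05, adjusted p = 0.604). In Pcdhga3 all 3 IM-HYA libraries lay below all 3 IM libraries, the libraries in which that gene had been noticed. With 1 library left out the log2 fold change of Pcdhga3 ran from −4.13 to −3.21. The adjusted p by DESeq2 was 0.000827, given as a description only, since the gene was picked with these libraries known. For Pcdhga1, IM 2 lay within the range of IM-HYA. Pcdhga10 had a log2 fold change of −2.40 (SE 1.46, adjusted p = 0.609), which turned to 1.02 without IM 2.

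Among members higher in IM-HYA than in IM, Pcdhgc4 had the smallest p, with a log2 fold change of 1.20 (SE 0.69, edgeR adjusted p = 0.605). Its level was 4.30 ± 2.24 CPM in IM and 9.90 ± 3.70 for IM-HYA (SD, n = 3 each), and the groups did not overlap, though the difference did not pass. Pcdhgb4 measured 0.901, 0.746 and 1.30 CPM in IM and 6.50, 0.419 and 1.21 for IM-HYA, beside 1.51, 4.71 and 0.399 in CT (log2 fold change 1.47, SE 1.0, adjusted p = 0.617), and the value turned to −0.26 without IM-HYA 1. Pcdhga11 measured 3.74, 0.529 and 0.372 CPM in IM and 2.1, 10.8 and 1.09 for IM-HYA, beside 0.849, 4.99 and 0.627 in CT (1.58, SE 1.13, adjusted p = 0.629), and was 0.03 without IM-HYA 2. Pcdhb3 and Pcdhb10 were separated upward and Pcdhb5 downward, with log2 fold changes of 0.73, 0.81 and −0.68. The median log2 fold change was −0.46 over the gamma genes and −0.01 over the beta genes, beside −0.01 over all genes.

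The comparison of IM-HYA with CT asked how mice with both the cast and the HYA diet differed from controls, and shares libraries with both other comparisons. Neither edgeR nor DESeq2 called a member, where edgeR called 0.00543% of all genes. DESeq2 called 0.0822% of the 18246 genes to which it gave an adjusted p. At an unadjusted p under 0.05, 4 members were higher (10.3%, against 2.31% of all genes) and 1 lower (2.56%, against 2.89%), where 5.2% of all genes passed in either direction. The groups did not overlap for 7 members higher (17.9%, against 10.8% of all genes) and 0 lower (0%, against 11.3%), where 22.1% of all genes were separated in either direction. The control libraries are those in which Pcdhga3 was noticed, and Pcdhga3 is among the members counted, so nothing is read from these shares either. The 4 higher at an unadjusted p under 0.05 were Pcdhga3, Pcdhga9, Pcdhga10 and Pcdhgb1, all of which also had a fitted value above 0 in IM against CT, where the control libraries are the same. Their log2 fold changes were 2.64 (SE 1.0), 4.80 (SE 1.83), 3.59 (SE 1.59) and 2.92 (SE 1.09), each with an edgeR adjusted p = 0.854. Pcdhgb7 was the member lower, at −3.28 (SE 1.13, adjusted p = 0.854), with 0.339, 0.279 and 1.72 CPM in IM-HYA against 17.1, 4.71 and 0.799 in CT, and its value was −1.82 without CT 1. Pcdhga4 and Pcdhga2, at −3.38 (SE 1.54) and −2.65 (SE 1.68), each rested on 1 control library and were 0.40 without CT 2 and 3.87 without CT 1. Pcdhb3, Pcdhb7, Pcdhb14 and Pcdhb19 were separated upward with log2 fold changes of 0.79 to 1.5, and all 4 were lowest in a control library.

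Neither edgeR nor DESeq2 called any of the related genes below, and edgeR called none of the neighbouring genes. Next to the clusters, Zmat2 and Hars on the alpha side averaged 79.3 and 29.7 TPM, and Hdac3 and Diaph1 on the gamma side 53.2 and 34.2 TPM, against 13.7 TPM for Pcdhgc3. Between the beta and gamma clusters, the transcription factor subunit gene Taf7 averaged 2.62 TPM and the mitochondrial carrier gene Slc25a2 0.0527 TPM.

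Of 12 unclustered protocadherins, which lie outside the clusters, 11 were tested, and edgeR and DESeq2 each called 0 in every comparison (0 by edgeR at an unadjusted p under 0.05). Pcdh1, known from epithelia, averaged 34.0 TPM, more than any clustered member, Pcdh7 3.0 TPM and Pcdh18 1.31 TPM. All 16 genes known to regulate the clusters were tested with 0 called by either tool, and edgeR had 1 at an unadjusted p under 0.05, higher in IM than in CT. The insulator protein gene Ctcf averaged 16.2 TPM, the cohesin subunit genes Rad21 and Smc3 62.3 and 17.6, the silencing factor gene Smchd1 5.28, the histone methyltransferase gene Setdb1 7.0 and the DNA methyltransferase gene Dnmt3b 0.524 TPM. Their medians of log2 fold change were 0.11 (IM against CT), −0.06 (IM-HYA against IM) and 0.11 (IM-HYA against CT). Of 14 genes for binding and processing partners all were tested and 0 called by either tool, with 1 at an unadjusted p under 0.05 in edgeR, lower in IM-HYA than in IM. The shedding enzyme gene Adam10 averaged 21.7 TPM and the Wnt pathway scaffold gene Axin1, whose protein binds that of Pcdhgc3 in mouse neurons, 14.7 TPM. Among 13 classical and desmosomal cadherins, 12 were tested and 0 called by either tool (0 at an unadjusted p under 0.05 in edgeR), led by the epithelial genes Cdh1 and Cdh17 at 340 and 128 TPM.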

How the data were processed

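Colon RNA-seq of 9 libraries (3 per group) was analysed from 1 deposited table. The submitters' processing notes name StringTie 2.1.3b, HISAT2 2.1.0, Trimmomatic, bcl2fastq 2.20.0 and the build GRCm38 (mm10). Neither strandedness nor the handling of reads shared between genes is given in the sources used here. Whole-number read counts, deposited by the authors without normalization, entered the main tests. The FPKM values, deposited by the authors as values per gene length and library size, entered alternative tests, and the deposited TPM values, scaled by the authors to a common sum, served for levels between genes. Every per-sample column was matched to a library (0 unused).

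Of 27860 genes with a read, 18414 passed edgeR's filterByExpr (minimum count 10, minimum total 15). edgeR 4.0.16 (R 4.3.3) was fitted to all libraries with TMM scaling and group as the only term (quasi-likelihood, robust, 6 residual degrees of freedom, common BCV 0.469), two-sided, with Benjamini-Hochberg adjustment over all genes tested and a threshold of 0.05. SE is the log2 fold change divided by the square root of F. Alternatives were RLE and upper quartile scaling, other filters, DESeq2 1.42.0, limma 3.58.1 on log2(FPKM + 1) or log2(FPKM + 0.1), the 2 groups alone, a replicate block and leaving out libraries. The test was tried on simulated counts.

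Gene symbols came from the table, and 45679 identifiers matched the GRCm38.p6 reference, 98 did not. Exons came from a GENCODE M21 annotation of that build. Coordinates are 1-based. Members and lists were chosen with earlier results of these data known. Members named in full were the 3 of each cluster highest in mean TPM, the C type genes, any called by edgeR, and the 3 with the smallest p per comparison and direction; others named for separated groups or for leading a library were chosen after their values were seen. Python 3.11.15 with matplotlib 3.10.9 drew the figures. Sequences of the locus are not reported here.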

Additional observations from a re-analysis of the deposited data

How the results depend on the processing

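The count of members called was 0 in each comparison with edgeR under RLE and upper quartile scaling, both other filters and the groups compared alone, with limma on FPKM, and with any 1 library or both CT 2 and IM 3 left out (left-out range 0 to 0 in each comparison). DESeq2 called 1 member (Pcdhga3) in IM against CT and 1 in IM-HYA against IM; the cause was not tested. Over all genes the edgeR counts of 1, 0 and 1 compared with 65, 43 and 15 by DESeq2, and 871 genes passed in IM-HYA against IM without IM 1. Differences of cluster sums against CT moved with the scaling; the part of the pancreatic transcripts in CT 2 (25.5% of its counts) was not tested. The beta difference of IM against CT was 1.04 in deposited TPM and 0.88 on plain library totals (main value 0.41), and that of IM-HYA against CT 1.20 and 1.0 (main value 0.39). The gamma difference of IM against CT was 1.02 and 0.89 (main value 0.42), and that of IM-HYA against CT turned from −0.29 to 0.47 and 0.32. The alpha difference of IM against CT went from −0.54 to 0.11 and −0.08, and that of IM-HYA against CT from −0.12 to 0.72 and 0.49. RLE scaling turned none of the 9 differences (beta in IM against CT was 0.42). With 1 library left out, the log2 differences of the gamma sum ran from 0.18 to 0.76 (IM against CT), −1.04 to −0.47 (IM-HYA against IM) and −0.52 to −0.13 (IM-HYA against CT). Those of the beta sum ran from 0.11 to 0.60, −0.15 to 0.13 and 0.09 to 0.58, and those of the alpha sum from −1.08 to 0.10, −0.22 to 0.85 and −0.65 to 0.22. On log2(FPKM + 1), which shrinks low genes, the Pcdhga3 values were 1.19, −1.04 and 0.15.

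Whether the replicate numbers pair the libraries could not be settled, since the pairs share libraries and the 2 ranges overlap. Same-numbered libraries correlated in their deviations from the group means between −0.27 and 0.36 over 9 pairs. Differently numbered libraries of different groups ran from −0.50 to 0.35. With the number as a replicate block edgeR called 0 members in every comparison and 1, 0 and 1 genes in all. Counting depth limits the alpha genes, of which 2 of 14 could be tested, and the beta genes, which had 60 to 494 counts per library in all.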
